A study of Mus musculus with 8 samples.

Results

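The genes described here are the mouse genes that carry a proteasome subunit name, that is, every gene whose symbol is Psma, Psmb, Psmc, Psmd, Psme, Psmf or Psmg followed by a number. There were 48 of them among the 24060 gene rows of the deposited files. They were measured in the cortex of 4 young adult mice of about postnatal day 80, male and female, without a record of which animal was which sex. All 4 animals had the genotype Aldh1l1-creERT2 hemi; Ribotag het, so the input and the HA IP libraries share both alleles. The input library of an animal is RNA from its cleared cortical lysate, and the HA IP library is RNA that came down with haemagglutinin-tagged ribosomes from the same animal. Ribotag is an allele of the ribosomal protein gene Rpl22 that gains the tag after Cre recombination, and the Aldh1l1 promoter, which drives the creERT2 recombinase here, is active in astrocytes. CreERT2 needs tamoxifen to act, and how the animals were induced is not given in the sources used here. The comparison therefore asks how the level of each proteasome mRNA in ribosome-bound RNA of the tagged cells stood against whole cortex, with 1 library of each kind from animals 579, 580, 581 and 595.

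The proteasome is the large protease that degrades proteins marked with ubiquitin. Its core particle is a barrel of alpha rings, which form the gate, and beta rings, which hold the catalytic sites. A regulatory cap binds the end of the barrel, with a base of ATPases that unfold the substrate and a lid that removes ubiquitin. In cells exposed to interferon gamma, Psmb8, Psmb9 and Psmb10 replace the constitutive catalytic subunits Psmb5, Psmb6 and Psmb7 in new particles, which are then called immunoproteasomes. The activator subunits Psme1 and Psme2 (PA28 alpha and beta) are induced by the same cytokine. In the brain, microglia are well known to express immunoproteasome subunits, and astrocytes can be induced to do so. Transcription of the constitutive subunits is under the control of Nfe2l1, a factor that binds antioxidant response elements (ARE).

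The promoters of Psmb5 with Psmb8, of Psmb6 with Psmb9 and of the activators at either end of the range are shown because these genes gave the contrasts described below, and the pair of Psmb10 and Psmb7 is not shown, since Psmb7 had no window. RefSeq windows on GRCm38.p6 were at hand for 40 of the 48 members, in 43 windows. Each sequence below runs from 250 bases before to 20 bases after the annotated start of transcription, 5′ to 3′ on the strand of the gene. Capitals mark a match to an ARE core (TGACNNNGC), an interferon-stimulated response element (ISRE) core (GAAANNGAAA) or an interferon gamma activated site (GAS) core (TTCNNNGAA) on either strand. Psmb5 (minus strand, chr14:54617976-54618245) and Psmb6 (plus strand, chr11:70525107-70525376) each hold 1 ARE core. Psmb8 (plus strand, chr17:34197945-34198214) holds 1 GAS core, and Psmb9 (minus strand, chr17:34187311-34187580) holds none of these letters. Psme1 (plus strand, chr14:55578244-55578513) holds 1 ISRE core, which lies after the start, and Psme4 (plus strand, chr11:30771525-30771794) holds 1 ARE core across the start.
Psmb5: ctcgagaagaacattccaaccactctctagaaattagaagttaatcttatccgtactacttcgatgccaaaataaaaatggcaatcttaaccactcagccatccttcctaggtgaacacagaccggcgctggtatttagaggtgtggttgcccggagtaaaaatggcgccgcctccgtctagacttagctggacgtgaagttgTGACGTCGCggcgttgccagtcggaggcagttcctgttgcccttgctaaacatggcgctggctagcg
Psmb8: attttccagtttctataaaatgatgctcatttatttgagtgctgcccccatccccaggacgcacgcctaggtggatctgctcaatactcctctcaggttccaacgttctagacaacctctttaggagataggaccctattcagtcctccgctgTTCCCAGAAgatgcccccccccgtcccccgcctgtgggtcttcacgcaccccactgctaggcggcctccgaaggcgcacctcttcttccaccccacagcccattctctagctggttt
Psmb6: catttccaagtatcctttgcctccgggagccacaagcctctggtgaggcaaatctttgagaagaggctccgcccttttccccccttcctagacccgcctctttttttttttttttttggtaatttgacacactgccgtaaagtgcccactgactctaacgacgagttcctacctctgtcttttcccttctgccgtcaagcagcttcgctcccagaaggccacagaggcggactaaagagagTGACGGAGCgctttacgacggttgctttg
Psmb9: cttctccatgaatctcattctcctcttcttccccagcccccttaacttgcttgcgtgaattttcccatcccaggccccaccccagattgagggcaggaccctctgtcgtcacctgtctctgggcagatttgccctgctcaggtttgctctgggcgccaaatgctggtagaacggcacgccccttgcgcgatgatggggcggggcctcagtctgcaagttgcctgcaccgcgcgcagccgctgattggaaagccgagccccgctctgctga
Psme1: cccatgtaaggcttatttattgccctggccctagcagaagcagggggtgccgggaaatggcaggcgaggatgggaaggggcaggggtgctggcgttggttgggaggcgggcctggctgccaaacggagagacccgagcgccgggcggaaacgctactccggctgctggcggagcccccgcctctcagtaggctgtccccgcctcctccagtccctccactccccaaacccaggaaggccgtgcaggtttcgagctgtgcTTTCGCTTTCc
Psme4: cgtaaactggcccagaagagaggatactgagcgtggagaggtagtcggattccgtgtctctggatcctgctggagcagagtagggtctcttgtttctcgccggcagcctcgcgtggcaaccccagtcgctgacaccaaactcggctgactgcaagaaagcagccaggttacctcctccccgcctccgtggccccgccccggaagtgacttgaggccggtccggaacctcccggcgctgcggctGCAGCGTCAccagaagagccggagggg

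Over windows that ran to 50 bases after the start, the ARE core was found in 6 of the 43 member windows (14.0%) and in 12.4% of all 32851 RefSeq windows. Those 6 windows belong to Psmb5, Psmb6, Psmc6, Psmd9, Psmd12 and Psme4, that is, to Psme4, the only member lower in HA IP, to Psmc6, which did not pass the test, and to 4 members that were higher. The ISRE core was found in 5 member windows (11.6%), those of Psmb3, Psmd4, Psmd9, Psme1 and Psmg4, against 3.44% of all windows. In the 250 bases before the start alone, it was found in 3 member windows (6.98%), against 2.98% of all windows. The GAS core was found in 3 member windows (6.98%), those of Psmb8, Psmd2 and Psmg1, against 8.30% of all windows. No matches to different motifs overlapped, and each match is a match of letters only.

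The libraries held between 33834388 and 53625125 fragments each, as the steps between the deposited values show. Values are given as deposited, in FPKM, that is, fragments over gene length and library total, always in the order of animals 579, 580, 581 and 595. Aldh1l1 itself was at 20.7, 21.9, 22.97 and 21.7 FPKM in input and at 406, 433, 415 and 370.3 FPKM in HA IP, a rise in each animal. All 10 astrocyte markers were higher in HA IP, with a summed level of 983 to 1072 FPKM in input and 14122 to 14871 FPKM in HA IP. All 10 neuron markers were lower, from a summed 2653 to 2842 FPKM to 161 to 182 FPKM, and so were all 10 oligodendrocyte markers (179 to 250 to 15.1 to 17.1 FPKM). Rpl22 counts do not separate the tagged from the untagged allele, so they do not check the tag. Most genes stood lower in HA IP as deposited, and the median log2 difference of all 15605 genes tested was -0.75. The part of abundant astrocyte mRNAs in this shift was not tested. Scaling by the trimmed mean of M values (TMM) raised the log2 differences by a median of 0.83 and brought that median to 0, and upper-quartile scaling raised them by 0.42. Differences below are on the TMM scale, as log2 (FPKM divided by the TMM factor, plus 0.1), which understates the change of low genes. A direction that does not hold on the deposited scale is given as such. One HA IP library stood apart in these genes: the HA IP library of animal 595 had the lowest TMM-scaled level of the 4 HA IP libraries for 41 of the 47 tested members, against 32.1% of all tested genes.

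Proteasome mRNAs were, as a group, higher in HA IP than in input relative to the other genes of the same libraries. Of the 47 members tested, 42 were higher (89.4%), with 41.8% of all genes tested higher. Only Psme4 was lower, with 41.4% of all genes tested lower, and Psma3, Psmb9, Psmc6 and Psme3 did not pass the test. On the TMM scale each of the 42 was higher in all 4 animals, whose libraries also gave the calls, so this is no separate support. The members' median log2 difference was 1.16, a value above that of 78.0% of all tested genes, and 45 of 47 members lay above the median of all genes. On the deposited scale 29 members were higher (61.7%, with 23.3% of all genes higher), 7 were lower (with 61.6% of all genes lower) and 11 did not pass. Psma5, Psma7, Psmb8, Psmc1 and Psmd12 were higher on the TMM scale with a log2 difference below 0 on the deposited scale that did not pass the test there. Psmd5, Psmd10 and Psmd14 were higher on the TMM scale and lower on the deposited scale, with both calls past the threshold. Without the HA IP library of animal 595, 43 members were higher, and without both of that animal's libraries 42 were. Fewer cells of a type and less of an mRNA in each cell cannot be told apart in these libraries.

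In fragments, the 48 genes together took 0.331% to 0.369% of the input libraries and 0.394% to 0.479% of the HA IP libraries, and these ranges do not overlap. Among input libraries the highest mean levels were those of Psmc5 (122 FPKM), Psmb1 (119 FPKM) and Psmc1 (117 FPKM). In HA IP the highest were Psmb4 (200.8 FPKM), Psmb1 (173 FPKM) and Psmb6 (157 FPKM). The order of the tested members by mean FPKM was otherwise similar in the 2 kinds of library (Spearman's rho 0.91 across 47 genes, which share the same libraries). The 14 standard core subunits had a median log2 difference of 1.41, and the 17 cap subunits one of 1.14. The 3 inducible catalytic subunits had a median of 0.76, the 7 assembly chaperones 1.26, and Psme1 with Psme2 1.61. The same medians on the deposited scale were 0.58 for the core, 0.31 for the cap, -0.023 for the inducible subunits, 0.43 for the chaperones and 0.79 for Psme1 with Psme2. In the 4 animals the core median ranged from 1.23 to 1.59 and the cap median from 0.97 to 1.22, so both were above the median of all genes in each animal.

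**Figure D1:**
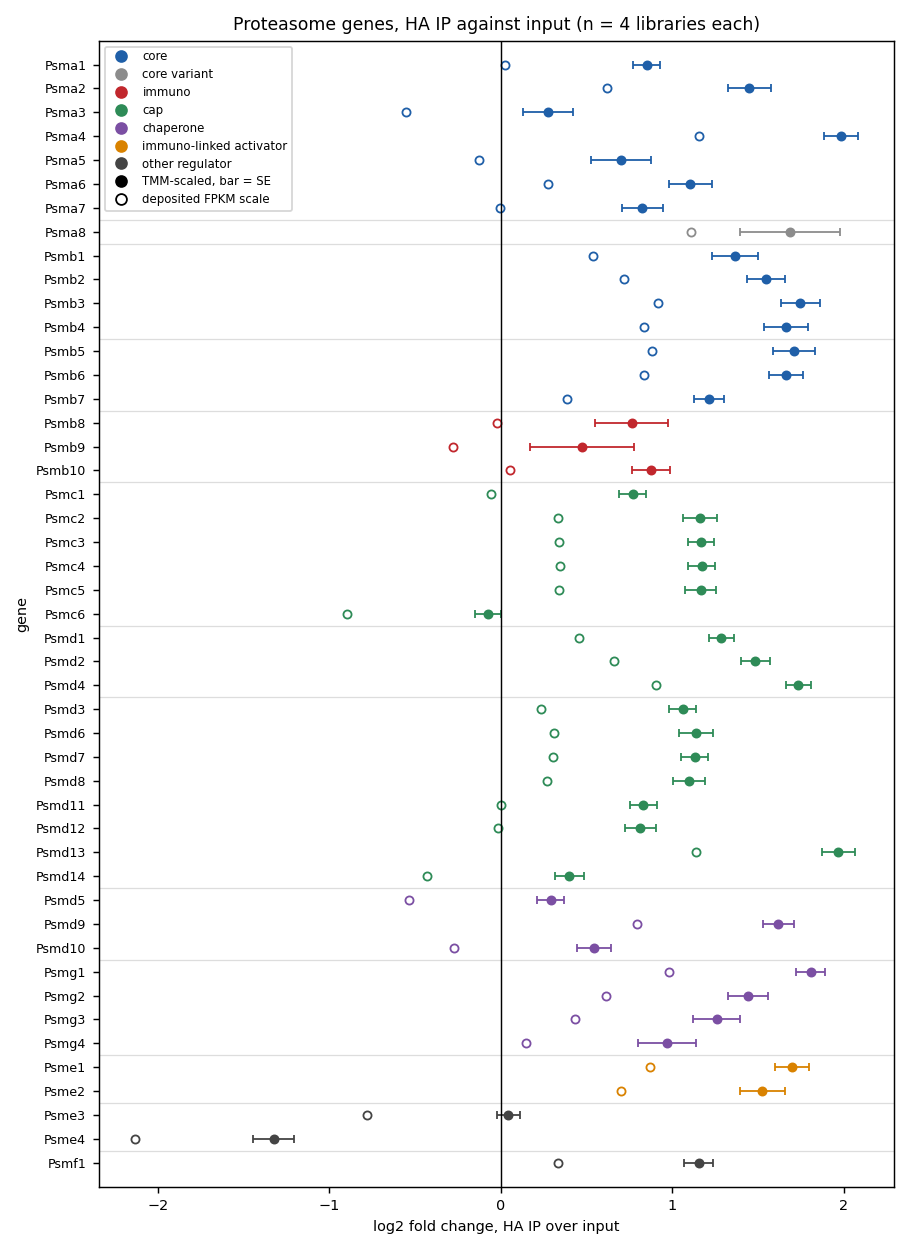
Log2 difference between HA IP and input (horizontal axis) for the 47 tested members, one per row, grouped by role and coloured by class. Filled points with bars are TMM-scaled differences with their standard error, open points are the same on the deposited FPKM scale, with 4 libraries in each group. Psme4 lies at -1.32, Psmc6 and Psme3 lie near 0, and Psma4 lies highest at 1.98.

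Alpha ring subunits of the core had the widest spread within a standard ring, from Psma3 at 0.28 to Psma4 at 1.98, with a median of 0.85. Of the 7 genes, 6 were higher in HA IP. Psma4 (chr9:54950781-54958034 on mm10, the build that the submitters' notes name) was at 65.4, 69.4, 59.9 and 59.96 FPKM in input and 128, 161, 152 and 129 FPKM in HA IP. The groups did not overlap, and the log2 difference was 1.98 (SE 0.10, adjusted p = 3.91e-08), with 1.16 on the deposited scale. Psma3, another gate-forming ring subunit, was at 93.9, 96.9, 89.4 and 75.03 FPKM in input and 50.8, 67.7, 75.9 and 50.5 FPKM in HA IP. The HA IP values of animals 579 and 595 lay well below those of 580 and 581, and the highest HA IP value overlapped the lowest input value. Its log2 difference was 0.28 (SE 0.15, adjusted p = 0.103). With the animal as a block the same 0.28 passed the test (adjusted p = 0.0287), and without the HA IP library of animal 595 it was 0.38 (adjusted p = 0.0249). As deposited, Psma3 was the other way round and passed the test, with a log2 difference of -0.55 (adjusted p = 0.00507). Psma3 overlaps the non-coding gene 3110056K07Rik in RefSeq, and Psma4 overlaps the protein-coding gene AY074887. The strand setting of the counting is not given in the sources used here. Psma2 and Psma6 stood at 1.45 and 1.11, and Psma1, Psma5 and Psma7 between 0.70 and 0.85, with deposited-scale values from -0.13 to 0.021.

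Structural beta ring subunits varied little among themselves. All 4 were higher in HA IP on both scales, with a median log2 difference of 1.60. Psmb3, the highest of them, was at 66.3, 72.1, 63.04 and 59.6 FPKM in input and 116, 137, 141 and 103 FPKM in HA IP. Its groups lay far apart, with a log2 difference of 1.75 (SE 0.12, adjusted p = 2.86e-07). Psmb1, the lowest of them, was at 132, 133, 107 and 105 FPKM in input and 163, 193, 196 and 141 FPKM in HA IP. Again no HA IP value fell within the input range, and the log2 difference was 1.37 (SE 0.13, adjusted p = 5.79e-06). Psmb2 and Psmb4 lay between them at 1.55 and 1.66.

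The constitutive catalytic subunits were also higher in HA IP on both scales. Psmb5 (chr14:54614120-54617995), which carries the chymotrypsin-like site, was at 80.5, 76.1, 67.9 and 67.1 FPKM in input and 132, 149.8, 151 and 108 FPKM in HA IP. Every HA IP value was above every input value, although animal 595 had the lowest value of the HA IP group. The log2 difference was 1.71 (SE 0.12, adjusted p = 5.27e-07). Psmb6 (chr11:70525324-70527858), with the caspase-like site, was at 95.2, 93.3, 83.9 and 78.8 FPKM in input and 143, 174, 164 and 145 FPKM in HA IP. These groups were also apart, by 1.66 on the log2 scale (SE 0.10, adjusted p = 1.26e-07). Psmb7 (chr2:38588046-38643952), with the trypsin-like site, was at 123, 119.9, 110.04 and 108 FPKM in input and 143, 163, 159 and 138 FPKM in HA IP. The gap between the groups was smaller here, at 1.22 (SE 0.088, adjusted p = 5.49e-07), and no values overlapped.

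The inducible catalytic subunits differed by less. Psmb8 and Psmb9, which lie near each other on chromosome 17 among the antigen presentation genes (chr17:34198195-34201454 and chr17:34182030-34187330), were 2 of the 4 lowest members in both kinds of library. Psmb8, the inducible form of the chymotrypsin-like subunit, was at 2.12, 2.13, 1.82 and 1.32 FPKM in input and 1.51, 2.19, 2.305 and 1.34 FPKM in HA IP. These deposited values overlapped throughout, and they rest on 55 to 126 fragments per library. On the TMM scale the log2 difference was 0.76 (SE 0.21, adjusted p = 0.00765), and on the deposited scale it was -0.023 (adjusted p = 0.923). Psmb9, the inducible form of the caspase-like subunit, was at 1.896, 1.38, 0.812 and 0.909 FPKM in input and 0.848, 1.49, 1.03 and 0.628 FPKM in HA IP, from 17 to 54 fragments per library. Its groups overlapped, with a log2 difference of 0.47 (SE 0.30, adjusted p = 0.168), and of -0.28 on the deposited scale. By animal the TMM-scaled differences of Psmb9 were -0.28, 0.93, 1.02 and 0.23, so that 3 animals had a higher and 1 a lower value in HA IP. Psmb10 (chr8:105935728-105938392), the inducible form of the trypsin-like subunit, was more abundant, at 29.9, 31.7, 30.9 and 25.2 FPKM in input and 31.1, 31.4, 34.1 and 25.5 FPKM in HA IP. As deposited the values overlapped, with a log2 difference of 0.050 (adjusted p = 0.665), and on the TMM scale the difference was 0.88 (SE 0.11, adjusted p = 3.41e-05).

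A ratio of an inducible subunit to its constitutive counterpart within 1 library does not depend on how the libraries are scaled, and a change in it does not depend on gene length. In all 3 pairs, and in 4 of 4 animals, the HA IP ratio was below the input ratio. On the TMM scale Psmb8 (0.76) and Psmb10 (0.88) lay near the alpha ring median of 0.85, and Psmb9 (0.47) lay below it. Psmb5 (1.71) and Psmb6 (1.66) lay above the core median of 1.41, and Psmb7 (1.22) below it. A fall against Psmb5 or Psmb6 is therefore not particular to the inducible subunits. Nor is a fall against Psmb7, since the alpha ring median and the cap median (1.14) also lay below Psmb7. Psmb8 stood at 2.64, 2.804, 2.69 and 1.96% of Psmb5 in the input libraries and at 1.14, 1.46, 1.53 and 1.24% in the HA IP libraries. All HA IP ratios lay below all input ratios. The means were 2.52 ± 0.3799% and 1.34 ± 0.1803% (SD, n = 4), a log2 difference of -0.91 (SD over animals 0.23, exact two-sided permutation p = 0.0286). Psmb9 stood at 1.99, 1.48, 0.968 and 1.15% of Psmb6 in input and at 0.592, 0.857, 0.628 and 0.434% in HA IP. Input ratios of Psmb9 spread widely, from animal 579 at the top to animal 581, yet the groups did not overlap. Their means were 1.40 ± 0.448% and 0.628 ± 0.174% (SD, n = 4), a log2 difference of -1.14 (SD over animals 0.53, exact two-sided permutation p = 0.0286). Psmb10 stood at 24.3, 26.4, 28.1 and 23.3% of Psmb7 in input and at 21.7, 19.2, 21.5 and 18.4% in HA IP. This change was the smallest of the 3 pairs, with means of 25.5 ± 2.15% and 20.2 ± 1.63% (SD, n = 4) and a log2 difference of -0.34 (SD over animals 0.13, exact two-sided permutation p = 0.0286). That p is the smallest that 70 arrangements of 4 against 4 libraries can give, and it was also 0.0286 after Benjamini-Hochberg adjustment over the 3 pairs. With sign flips within animals as the replicate block, the exact permutation p was 0.125 for each pair, the smallest that 4 animals allow. Without the HA IP library of animal 595, or without the input library of animal 579 or of animal 580, the difference of Psmb9 to Psmb6 was -0.98, -0.95 and -1.10, each with an exact permutation p of 0.0571. Without the HA IP library of animal 595 the difference of Psmb10 to Psmb7 was -0.29, also with an exact permutation p of 0.0571. Microglia markers were lower in HA IP for 10 of 10 genes in the same libraries, with a summed level of 163 to 173 FPKM in input and 10.8 to 13.0 FPKM in HA IP and none at 0 in every HA IP library. Endothelial markers were lower for 9 of 10 (23.0 to 32.7 against 3.34 to 4.78 FPKM), and mural cell markers were mixed, with 2 higher, 4 lower and 4 not passed (50.8 to 60.3 against 24.3 to 55.6 FPKM). The part of these cells in the ratios was not tested.

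**Figure D2:**
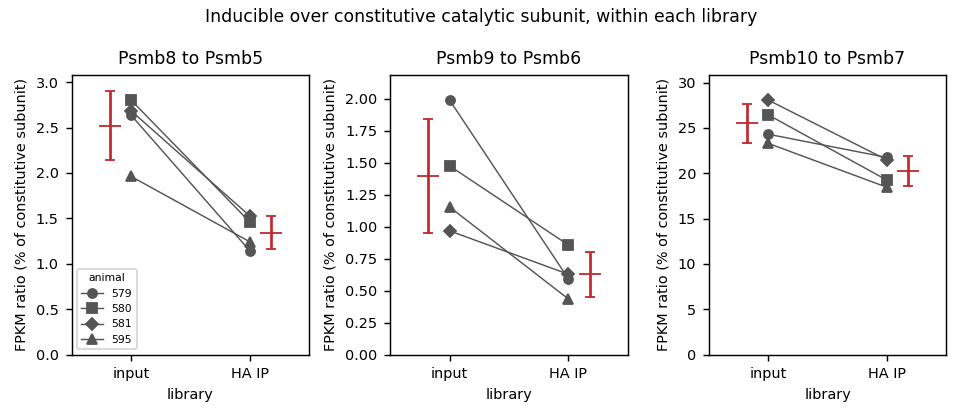
FPKM of each inducible catalytic subunit as a percentage of its constitutive counterpart within a library (vertical axis, from 0), for input and HA IP, with a line for each of the 4 animals and the group mean ± SD in red. Every line falls from input to HA IP, from a mean of 2.52% to 1.34% for Psmb8 to Psmb5, from 1.40% to 0.628% for Psmb9 to Psmb6 and from 25.5% to 20.2% for Psmb10 to Psmb7.

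Tissue-restricted core variants were close to the limit of detection. Psma8, the alpha subunit of testis proteasomes, was at 0.0833, 0.335, 0.112 and 0.177 FPKM in input and 0.2597, 0.508, 0.515 and 0.649 FPKM in HA IP, from 5 to 39 fragments per library. As deposited, the input value of animal 580 lay within the HA IP range, and the TMM-scaled log2 difference was 1.69 (SE 0.29, adjusted p = 0.000357). Psmb11, the beta subunit of thymus proteasomes, was at 0.0397, 0.01995, 0.05098 and 0.0264 FPKM in input, which is at most 8 fragments per library, and was at 0 in all 4 HA IP libraries. It did not pass the filter on low values and was not tested.

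Of the 6 cap ATPases 5 were higher on the TMM scale, and 4 of them had nearly the same difference. Psmc2, Psmc3, Psmc4 and Psmc5 lay between 1.16 and 1.17 on the log2 scale, and Psmc1 lay at 0.77 (-0.060 as deposited). Psmc4, the highest, was at 55.9, 54.001, 55.8 and 51.95 FPKM in input and 68.5, 75.6, 65.2 and 67.03 FPKM in HA IP. All HA IP values exceeded all input values, with a log2 difference of 1.17 (SE 0.076, adjusted p = 2.42e-07). Psmc6, which sits in the same ATPase ring (chr14:45329823-45349074), was at 69.2, 66.6, 60.4 and 61.7 FPKM in input and 32.04, 36.5, 36.7 and 32.8 FPKM in HA IP. Here the order was turned as deposited, with every HA IP value below every input value and a log2 difference of -0.90 (adjusted p = 1.47e-06). On the TMM scale its groups overlapped and the difference was -0.073 (SE 0.076, adjusted p = 0.3898). Among genes of mean 1 FPKM or more it was called lower on the TMM scale, at -0.296 (adjusted p = 0.00367). Psmc6 lay 1.24 below the median of the core and cap subunits on the log2 scale, and this gap, unlike the difference itself, is nearly free of the scaling between libraries.

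Scaffold and ubiquitin receptor subunits of the cap base were higher in HA IP on both scales. Psmd4, a ubiquitin receptor, was at 34.7, 33.97, 32.95 and 32.3 FPKM in input and 62.1, 67.2, 65.4 and 57.3 FPKM in HA IP. These groups were tight and apart, with a log2 difference of 1.74 (SE 0.074, adjusted p = 1.15e-08). Psmd1, a scaffold subunit that overlaps the serotonin receptor gene Htr2b in RefSeq, was at 49.98, 51.6, 52.1 and 50.6 FPKM in input and 68.02, 75.7, 72.3 and 65.1 FPKM in HA IP. Its groups did not overlap either, and its log2 difference of 1.29 (SE 0.073, adjusted p = 9.15e-08) was the lowest of the 3. Psmd2, the other large scaffold, lay between them at 1.48.

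Among the 8 lid subunits, all were higher on the TMM scale, with a median log2 difference of 1.08. Psmd13 (chr7:140882394-140898642) was at 44.3, 39.5, 36.9 and 37.98 FPKM in input and 83.4, 96.2, 94.8 and 76.6 FPKM in HA IP. No HA IP value came near the input range, with a log2 difference of 1.97 (SE 0.10, adjusted p = 3.27e-08). Psmd14 (chr2:61711694-61800376), the deubiquitinase that removes ubiquitin chains during degradation, was at 65.2, 62.8, 58.9 and 60.02 FPKM in input and 41.3, 50.98, 48.9 and 42.7 FPKM in HA IP. Every deposited HA IP value was below every input value, and on that scale Psmd14 was called lower, with a log2 difference of -0.43 (adjusted p = 0.000706). On the TMM scale it was higher, by 0.40 (SE 0.086, adjusted p = 0.00158), and with upper-quartile scaling the value was -0.0067, so its direction rests on the scaling. Testing only genes of mean 1 FPKM or more, still with TMM factors, gave 0.18 (adjusted p = 0.0720), which did not pass. Relative to the median of the core and cap subunits it lay 0.77 lower. Psmd3, Psmd6, Psmd7 and Psmd8 lay between 1.06 and 1.14, and Psmd11 and Psmd12 at 0.83 and 0.81, with deposited-scale values of 0.0031 and -0.015.

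**Figure D3:**
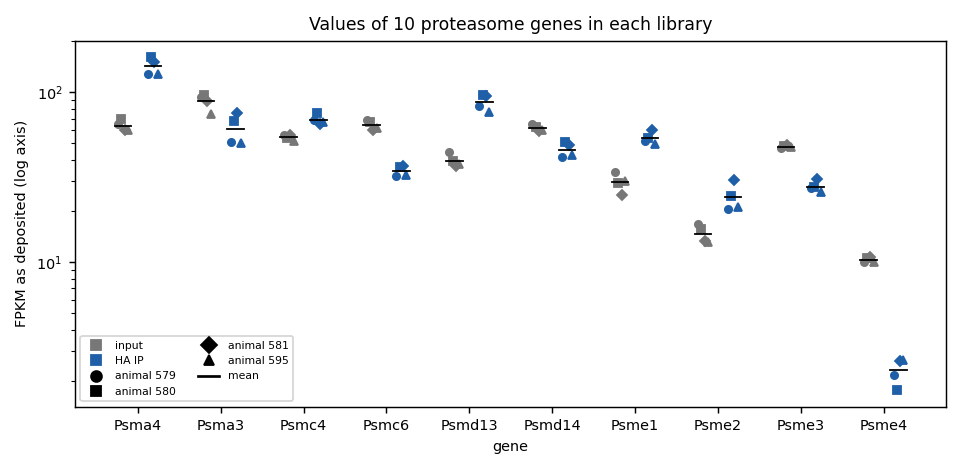
FPKM as deposited (vertical axis, log scale) of 10 members in every library, with input in grey, HA IP in blue, a symbol for each of the 4 animals and a line at the group mean. Psma4, Psmd13, Psme1 and Psme2 are higher in all HA IP libraries, Psmc6, Psmd14, Psme3 and Psme4 are lower in all of them on this unscaled axis, and Psma3 overlaps.

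Assembly chaperones are taken here by the particle they build. The 20S chaperones Psmg1, Psmg2, Psmg3 and Psmg4, which bring the alpha ring together, had a median log2 difference of 1.35. Psmg1 was at 12.1, 11.1, 12.7 and 10.9 FPKM in input and 21.2, 23.4, 26.3 and 22.001 FPKM in HA IP. Those groups were well apart, with a log2 difference of 1.81 (SE 0.084, adjusted p = 2.11e-08). Psmg4 was at 9.57, 11.7, 8.27 and 6.94 FPKM in input and 8.83, 12.1, 10.5 and 8.69 FPKM in HA IP. Its deposited values overlapped, and its TMM-scaled log2 difference was 0.97 (SE 0.17, adjusted p = 0.000377). Psmg2 and Psmg3 lay between them at 1.44 and 1.26. The base chaperones Psmd5, Psmd9 and Psmd10, which guide the ATPases into their ring, had a median of 0.54. Psmd9 was at 9.595, 10.6, 8.38 and 8.45 FPKM in input and 15.1, 16.9, 16.3 and 15.9 FPKM in HA IP. No values overlapped, and the log2 difference was 1.62 (SE 0.090, adjusted p = 7.39e-08). Psmd5 was at 18.3, 16.9, 20.7 and 18.9 FPKM in input and 12.97, 12.9, 13.4 and 12.1 FPKM in HA IP, so each deposited HA IP value was below each input value. It was lower on that scale (-0.53, adjusted p = 8.95e-05) and higher on the TMM scale (0.29, SE 0.080, adjusted p = 0.00702). Without animal 579 or animal 580 the TMM-scaled value was 0.26 or 0.23 and did not pass (adjusted p = 0.0549 and 0.0553), nor did it among genes of mean 1 FPKM or more (0.067, adjusted p = 0.4504). Psmd10, on the X chromosome and overlapping Atg4a, lay at 0.54 on the TMM scale and was lower, at -0.27, as deposited. The difference between these chaperone groups was not tested.

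Activators of the core gave the widest contrast of any role. Psme1 and Psme2 form the PA28 alpha and beta ring, lie close together on chromosome 14 (chr14:55578494-55581527 and chr14:55587440-55591101), and were higher in HA IP on both scales. Psme1 was at 34.1, 29.1, 24.9 and 30.2 FPKM in input and 51.8, 54.02, 59.7 and 49.9 FPKM in HA IP. The groups did not overlap, with animal 581 lowest in input and highest in HA IP, and the log2 difference was 1.70 (SE 0.10, adjusted p = 1.01e-07). Psme2 was at 16.8, 15.7, 13.3 and 13.1 FPKM in input and 20.6, 24.6, 30.3 and 21.3 FPKM in HA IP. Animal 581 again had the highest HA IP value, and the log2 difference was 1.53 (SE 0.13, adjusted p = 1.83e-06). Psme1 overlaps Emc9 in RefSeq, and Psme2 has a copy with its own row, Psme2b, so reads may be split between the copies. Psme2b was at 1.09, 0.908, 1.15 and 0.723 FPKM in input and 1.57, 1.51, 1.56 and 1.15 FPKM in HA IP, with a log2 difference of 1.30 (SE 0.17, adjusted p = 5.04e-05). The 2 PA28 alpha and beta genes, which interferon gamma induces with the inducible catalytic subunits, lay at 1.70 and 1.53, while those 3 subunits lay between 0.47 and 0.88.

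Psme3 encodes PA28 gamma, a nuclear activator known for degradation without ubiquitin. It was at 47.2, 48.04, 48.95 and 47.8 FPKM in input and 27.3, 27.8, 30.7 and 25.8 FPKM in HA IP. As deposited all HA IP values lay far below input, at -0.78 (adjusted p = 1.72e-06), and on the TMM scale the difference was 0.044 (SE 0.068, adjusted p = 0.562). Among genes of mean 1 FPKM or more Psme3 was called lower on the TMM scale, at -0.18 (adjusted p = 0.0283). Psme4 (chr11:30771775-30881150), which encodes the large activator PA200, was at 9.98, 10.5, 10.8 and 10.01 FPKM in input and 2.16, 1.77, 2.62 and 2.67 FPKM in HA IP. It stood lower in the HA IP library of all 4 animals and on each scale, with log2 differences of -1.32 (SE 0.12, adjusted p = 2.86e-06) on the TMM scale and -2.13 (adjusted p = 1.38e-07) as deposited. By animal the TMM-scaled differences of Psme4 were -1.32, -1.66, -1.23 and -1.09. It lay 2.49 below the median of the core and cap subunits, and it overlaps Erlec1 in RefSeq. Psmf1, an inhibitor of the core that also overlaps another gene (Tmem74b), was at 8.47, 8.46, 8.94 and 8.83 FPKM in input and 11.5, 11.7, 10.9 and 9.79 FPKM in HA IP. Its groups did not overlap, and its log2 difference was 1.15 (SE 0.085, adjusted p = 6.04e-07).

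Members varied together from animal to animal within a group of libraries. In HA IP, animal 595 was lowest for 41 members and animal 580 for 1, and in input, animal 595 was lowest for 25 of 47 members, against 23.5% of all tested genes. The departures in HA IP were greatest for the low genes Psma8, Psmb8 and Psmb9 and for the core subunit Psma5, which stood at 46.7, 58.4, 61.1 and 35.4 FPKM in HA IP. All 14 standard core subunits lay above the mean of their group in animal 580 and below it in animal 595, in input and in HA IP alike. Psme4 was among the exceptions: its HA IP value was highest in animal 595 and lowest in animal 580. The library of animal 595 was the shallowest of the HA IP libraries and the deepest of the input libraries, and the part of depth in these departures was not tested.

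**Figure D4:**
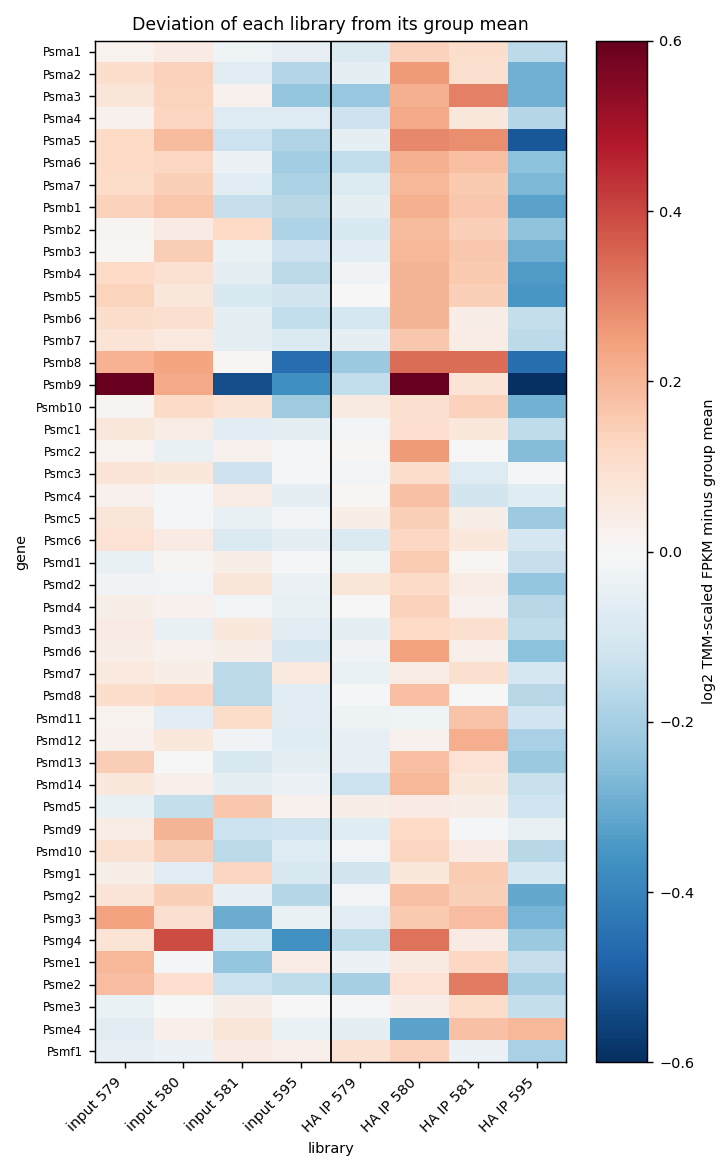
Log2 TMM-scaled FPKM minus the mean of its group (colour, limited at 0.6 either way) for 46 members in rows (all those tested except the low Psma8) and the 8 libraries in columns, input to the left of the line and HA IP to the right. The column of HA IP 595 is blue for nearly every member, while that of HA IP 580 is mostly red, and Psme4 shows the opposite colours.

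Genes that work with the proteasome outside the Psm names gave a mixed picture, and many of their calls depended on the scale. Over the 5 lists of related genes, proteasome regulators and antigen presentation included, 33 genes were higher and 11 lower on the TMM scale, and 16 were higher and 23 lower as deposited. Over all genes tested, 41.8% were higher and 41.4% lower on the TMM scale, and 23.3% and 61.6% as deposited, and the share of higher genes among the partners and the ubiquitin genes below was near that of all genes. Of 11 partners, 4 were higher in HA IP, 5 lower and 2 not passed, with a median log2 difference of -0.15. Adrm1, a ubiquitin receptor of the cap, was at 29.8 ± 1.23 FPKM in input and 41.1 ± 6.28 FPKM in HA IP (SD, n = 4), the highest of the list at 1.28 (adjusted p = 6.70e-07). Pomp, the chaperone that matures the beta ring, was higher at 0.94 (adjusted p = 0.000113) and stood at 0.11 on the deposited scale. Ube3c, a ubiquitin ligase bound to proteasomes, was the lowest, from 22.5 ± 1.197 to 4.96 ± 0.329 FPKM (SD, n = 4) and -1.34 (adjusted p = 1.22e-07). Among 11 shuttle factors and Vcp partners 7 were higher, 2 lower and 2 not passed, with a median of 0.66. Vcp, the ATPase that extracts ubiquitinated proteins, rose from 54.3 ± 2.47 to 134 ± 7.36 FPKM (SD, n = 4; 2.12, adjusted p = 4.22e-09). Ddi2, the protease that activates Nfe2l1, fell from 6.22 ± 2.14 to 0.456 ± 0.0957 FPKM (SD, n = 4; -2.71, adjusted p = 1.20e-06).

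Of 6 ubiquitin genes and activating enzymes, 3 were higher, 1 lower and 2 not passed. Uba6, a ubiquitin activating enzyme, was the lowest at -1.84 (adjusted p = 4.42e-07). Among 10 regulators of proteasome genes 6 were higher, 2 lower and 2 not passed, with a median of 0.54. Nfe2l2, the factor of the oxidative stress response, was at 5.598, 5.41, 5.19 and 5.37 FPKM in input and 27.4, 29.1, 29.2 and 26.03 FPKM in HA IP. These groups lay far apart on either scale, with 3.17 on the TMM scale (adjusted p = 3.18e-10) and 2.35 as deposited. Nfe2l1, its relative that drives proteasome genes when proteasomes are inhibited, was at 17.8, 17.4, 18.03 and 17.4 FPKM in input and 14.5, 13.3, 17.4 and 13.1 FPKM in HA IP. It was higher on the TMM scale (0.54, adjusted p = 0.000252) and lower as deposited (-0.28, adjusted p = 0.0155). Nfe2l3, the third of the family, was lower, at -1.85 (adjusted p = 1.67e-05).

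Antigen presentation genes, to which the inducible subunits belong by function, were more often higher than lower on both scales. Of 16 genes for MHC class I presentation and interferon signalling, 13 were higher, 1 lower and 2 not passed, against 41.8% higher and 41.4% lower over all genes tested, with a median of 1.17. As deposited 8 were higher and 3 lower, against 23.3% and 61.6%, with a median of 0.38. H2-K1, a class I heavy chain, rose from 8.599 ± 2.105 to 57.8 ± 13.2 FPKM (SD, n = 4; 3.56, adjusted p = 7.26e-08), and class I genes are similar enough to share reads. Tap1, the peptide transporter gene that shares a promoter region with Psmb9, was at 0.373, 0.356, 0.299 and 0.286 FPKM in input and 0.684, 0.989, 1.04 and 0.571 FPKM in HA IP. Its groups did not overlap, with a log2 difference of 1.75 (SE 0.20, adjusted p = 1.58e-05), while Psmb9 stood at 0.47 without passing the test. B2m, the class I light chain, was at 74.9 ± 4.07 and 78.3 ± 8.35 FPKM (SD, n = 4), higher at 0.89 on the TMM scale (adjusted p = 2.95e-06) and at 0.060 as deposited. Nlrc5, a transactivator of class I genes and of the inducible subunits, was low, at 0.0809 ± 0.0144 and 0.0287 ± 0.0176 FPKM (SD, n = 4). Its TMM-scaled log2 difference was -0.23 (adjusted p = 0.164), and without the HA IP library of animal 581 it passed at -0.35 (adjusted p = 0.0403). Nlrc5 also passed as lower on the deposited scale (-0.50, adjusted p = 0.00591) and with upper-quartile factors (-0.36, adjusted p = 0.0320). Ifngr2, a chain of the interferon gamma receptor, was the only gene of the list that was lower on the TMM scale (3 were as deposited), from 23.8 ± 1.33 to 6.06 ± 0.2901 FPKM (SD, n = 4; -1.13, adjusted p = 1.65e-07).

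**Figure D5:**
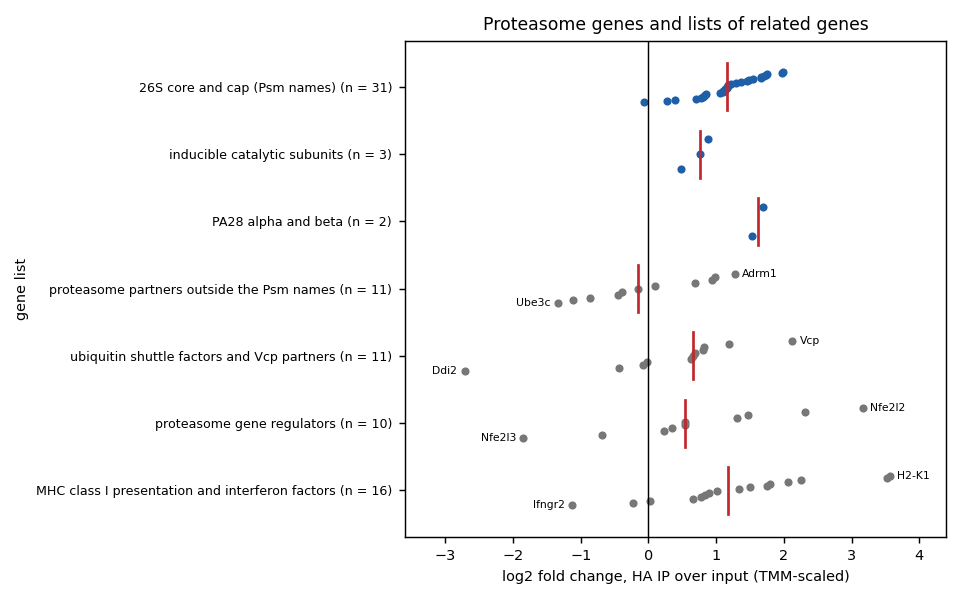
TMM-scaled log2 difference between HA IP and input (horizontal axis) for the members and for 4 of the lists of related genes, one point per gene, with members of the Psm name family in blue, related genes in grey and the list median as a red line. The 31 standard core and cap genes have a median of 1.17, the 3 inducible subunits one of 0.76, and the grey lists run from Ddi2 at -2.71 to H2-K1 at 3.56.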

How the data were processed

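RNA of the input and HA IP libraries was enriched for mRNA and made into stranded paired-end libraries, per the labels' protocols. Per the submitters' processing notes, bcl2fastq 2.17, STAR and HTSeq were used with build mm10. No version of STAR or HTSeq, annotation, strand setting or step to FPKM is given in the sources used here. The authors deposited 1 value per gene symbol, read here as FPKM because all 142235 values above 0 were within 0.001 of a whole number of fragments at 1 total per library and 1 length per gene. Those fragments gave the library totals and the filter: 0.246 CPM (10 fragments in a library of median size) in at least 4 libraries and 15 fragments in all, which left 15605 genes. Fragments, ratios and permutation tests were computed in Python 3.11.15, and TMM factors (from FPKM, unweighted, trims of 0.3 and 0.05) in R 4.3.3. There, log2 (FPKM / factor + 0.1) was fitted with limma 3.58.1 (intensity trend, two-sided, Benjamini-Hochberg over all genes tested, threshold 0.05), with no block. The fits were tested on simulated data in which few genes changed, as many up as down. That test therefore does not bear on the scaling between HA IP and input. HA IP and input of 1 animal deviated together (correlation 0.22 to 0.40, at most 0.11 between animals), so the animal number pairs the libraries, and the blocked fit was an alternative. Coordinates and promoters are from RefSeq, GRCm38.p6.

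The members and the lists of related and marker genes were chosen with earlier results of these data known. Values in every library are given for the catalytic pairs, the activators, the inhibitor and the members with the highest and lowest difference in each role, and from each list the highest and lowest gene and Adrm1, Pomp, Nfe2l1, Nfe2l2, Tap1, B2m and Nlrc5 are named, with values by library, group means or the difference alone. The highest gene of 1 list is not reported here. Other settings tried were other scalings, pseudocounts, filters, no intensity trend, and leaving out each library or animal.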

Additional observations from a re-analysis of the deposited data

Results flagged for a closer look

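In 100 groups of 4 libraries looked at (the FPKM of each of the 47 tested members and the 3 pair ratios, in input and in HA IP), 4 held a library farther from the rest than Dixon's criterion allows, and chance alone gives about 1 in 20 such groups. Psmd2, a scaffold subunit, was at 47.5 FPKM in the HA IP library of animal 595, below the other HA IP libraries. Psmd7, a lid subunit, was at 60.5 FPKM in the input library of animal 581, below the other input libraries. Psmd11, another lid subunit, was at 42.2 FPKM in the HA IP library of animal 581, above the other HA IP libraries. The log2 ratio of Psmb8 to Psmb5 was -5.67 in the input library of animal 595, below the other input libraries, and without that library the HA IP minus input difference of the pair was -1.02 with an exact permutation p of 0.0286.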

How the results depend on the processing

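Scaling mattered most. On the deposited scale 3643 genes in all were higher, 7 members were lower, the related lists held 16 higher and 23 lower genes, and the medians were 0.58 (core), 0.31 (cap), -0.023 (inducible subunits) and 0.43 (chaperones). On that scale the sign turned for Psma3 (-0.55), Psma5 (-0.13), Psma7 (-0.0025), Psmb8 (-0.023), Psmb9 (-0.28), Psmc1 (-0.060), Psmd5 (-0.53), Psmd10 (-0.27), Psmd12 (-0.015), Psmd14 (-0.43), Psme3 (-0.78) and Nfe2l1 (-0.28). With upper-quartile factors 37 members were higher and 3 lower, the lists held 19 lower genes, the medians were 1.001, 0.73, 0.38 and 0.85, and Psma3 (-0.13), Psmd5 (-0.11), Psmd14 (-0.0067) and Psme3 (-0.36) turned. Psma5 (0.29, adjusted p = 0.112 by limma), Psmb8 (0.38, adjusted p = 0.115) and Psmd10 (0.14, adjusted p = 0.179) then lost their higher calls, as did Psmd5 and Psmd14. Psmc6 (-0.48, adjusted p = 9.72e-05) and Psme3 were called lower with these factors. A filter of mean 1 FPKM tests fewer genes and moves the TMM factors. It gave 39 higher and 3 lower members and medians of 1.18 (core) and 0.91 (cap). This filter ended the calls of Psmd5 (0.067) and Psmd14 (0.18) and made Psmc6 (-0.296) and Psme3 (-0.18) lower calls. No filter gave 2 lower members, since Psmb11 was then tested. With the animal as a replicate block 43 members were higher, Psma3 passed (adjusted p = 0.0287), and no other member's call changed. The pair ratios with the replicate block kept -0.91, -1.14 and -0.34, with an exact permutation p of 0.125, which 4 animals cannot go below. Leaving out 1 library or animal gave 41 to 43 higher members and -1.02 to -0.81 (Psmb8 to Psmb5), -1.31 to -0.94 (Psmb9 to Psmb6) and -0.39 to -0.29 (Psmb10 to Psmb7), and 3 animals cannot go below an exact permutation p of 0.1. Depth limits Psma8, Psmb9 and Psmb11 most.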

Other observations

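These values lie outside the comparisons of the report and were chosen after they were seen. Psmc3ip, a recombination factor gene named for its protein's binding to Psmc3 and no proteasome subunit, was at 12.5, 12.9, 1.68 and 11.95 FPKM in input and 11.9, 13.5, 2.38 and 11.2 FPKM in HA IP. Animal 581 was low in both of its libraries, and HA IP and input overlapped (TMM-scaled log2 difference 0.91, SE 0.73, adjusted p = 0.266 by limma). Within animals the difference was 0.78, 0.93, 1.23 and 0.69, and with the animal as a block it was called higher (adjusted p = 7.96e-05). The same animal was the highest for Gfap, a filament gene of reactive astrocytes, which was at 26.8, 21.3, 66.1 and 24.9 FPKM in input and 449, 309.6, 1076 and 357 FPKM in HA IP. Maff, a small Maf partner of the Nfe2l factors, was at 0.797, 0.896, 2.15 and 0.716 FPKM in input and 0.902, 0.816, 11.2 and 1.05 FPKM in HA IP, again highest in animal 581. Stat3 was at 3.39, 3.195, 4.397 and 3.29 FPKM in input and 8.695, 7.79, 17.97 and 8.83 FPKM in HA IP, with animal 581 highest in both. Psme1 and Psme2 also had their highest HA IP values in animal 581, while Psmb8 and Psmb9 had theirs in animals 581 and 580. A highest value in animal 581 is not particular to Psme1 and Psme2. As deposited, the HA IP values of Psma2, Psma4, Psmb6 and Psmb7 were highest in animal 580, and those of all other standard core subunits in animal 581.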
